A study of Mus musculus with 22 samples.

Results

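The comparison sets 3 RNA-seq libraries of mouse embryonic stem cells that lack the element E1 (E1-KO) against 3 libraries of cells that lack the element E2 (E2-KO), over all genes. These are 6 of the 22 samples of the series and 6 of its 12 RNA-seq libraries, chosen by the genotype in their labels and fitted without the 3 WT and 3 D-KO libraries. All of them came from E14, an established mouse embryonic stem cell line of blastocyst origin. The cells had been grown in serum with LIF, the MEK inhibitor PD0325901 and the GSK inhibitor CHIR99021, and were then moved for 1 day to medium without these 3 agents and with 2 µM retinoic acid. WT cells are unedited, and D-KO, which the labels do not spell out, is read as the loss of both elements. Levels in WT and D-KO are given beside the comparison as description only. E1-KO and E2-KO share the treatment, the line and the presence of a deletion, and differ in which element is missing. The series title concerns enhancers that act on HoxB genes and on early differentiation under retinoic acid. The series names the 3 libraries of a genotype biological replicates. Separate cultures or clones are not mentioned for them. The genotype and the clone therefore cannot be told apart, and p-values measure the spread between these samples alone.

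HoxB genes encode homeodomain transcription factors that give cells of the hindbrain and trunk their position along the body axis. Retinoic acid enters the nucleus, binds retinoic acid receptors paired with retinoid X receptors on DNA, and switches on Hox genes from one end of each cluster, together with genes that store and break down retinoids. In stem cells released from LIF and kinase inhibitors it also lowers the network that keeps them naive and opens routes towards primitive endoderm and epiblast fates. Levels below are CPM, the counts of a gene per 1e6 counts of its library, after TMM scaling over the 12 libraries. Log2 fold changes are E1-KO minus E2-KO with their standard error, so a positive value is a higher level in E1-KO. A gene is called where edgeR's quasi-likelihood test on the 6 libraries gave a Benjamini-Hochberg adjusted p below 0.05.

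The receptor pair binds repeats of a short half-site, and the retinoid-degrading enzyme gene Cyp26a1 is the textbook case. Its promoter is shown beside that of Hoxb4, since both genes were lower in E1-KO and stand for the retinoid and the HoxB genes described below. The sequences are those of RefSeq (GRCm38.p6), from 250 bases before to 50 bases after the start of the gene, 5′ to 3′ on the plus strand, at chr19:37697558-37697857 for Cyp26a1 and chr11:96318017-96318316 for Hoxb4. Capitals mark the half-site AGGTCA or a variant of it, on either strand. The variants searched were first AGTTCA, then also GGGTCA, and lastly the form GGTTCA. No more than 1 of the 4 can match at a given position of a strand.

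Cyp26a1: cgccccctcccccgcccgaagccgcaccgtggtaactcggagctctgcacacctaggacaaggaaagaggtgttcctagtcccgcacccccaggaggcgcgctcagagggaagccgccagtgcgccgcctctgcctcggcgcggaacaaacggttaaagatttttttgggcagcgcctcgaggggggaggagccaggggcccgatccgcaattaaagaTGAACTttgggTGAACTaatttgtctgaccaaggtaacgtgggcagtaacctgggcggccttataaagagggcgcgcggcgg

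Hoxb4: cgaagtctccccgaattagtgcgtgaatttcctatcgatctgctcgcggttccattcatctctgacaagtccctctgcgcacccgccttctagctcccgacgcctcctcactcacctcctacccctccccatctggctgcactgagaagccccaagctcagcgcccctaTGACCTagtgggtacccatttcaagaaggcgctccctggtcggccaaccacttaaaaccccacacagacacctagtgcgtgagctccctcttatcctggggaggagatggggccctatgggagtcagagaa

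The Cyp26a1 window holds 2 half-sites in the same orientation with 5 bases between them, an arrangement present in 32 of 32851 windows (0.0974%). The Hoxb4 window holds 1 half-site, as 43.7% of all windows hold at least 1. Windows were found for 3 of the 10 HoxB genes, of which 1, that of Hoxb4, held a half-site. The same held for 4 of 9 HoxA genes, 5 of 11 genes of retinoid uptake and metabolism and 6 of 7 retinoic-acid-induced regulators. Among all these genes only Cyp26a1 had a window with 2 half-sites in the same orientation and 5 bases between them. These are matches of letters and do not show binding.

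The 6 libraries were of like depth and close to each other. E1-KO held 9562262 to 10342463 counts per library and E2-KO 9101547 to 10433253, and the chi-square between replicates was 2.20 to 4.01 per gene, above counting error. Reads with no gene were 1.157 to 1.195 times the counted reads in E1-KO and 1.110 to 1.118 times in E2-KO, without overlap. Mitochondrial transcripts took 1.36% to 1.48% of the counts in E1-KO and 1.63% to 1.81% in E2-KO. The Y-linked genes Ddx3y, Eif2s3y, Kdm5d, Uty and others of the list summed to at most 0.0946 CPM in every KO library and to 81.5 to 128 CPM in WT, so this difference from WT is shared by the genotypes compared here. Where E1 and E2 lie is not given in the sources used here, and gene counts do not cover them. The counts therefore do not show which element a library lacks. The summed HoxB level, given below, was under that of WT in both genotypes.

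Stem cell genes were read at high levels in both genotypes, with Pou5f1, the central pluripotency factor, at 14702 to 15603 counts per library in E1-KO and 14688 to 14980 in E2-KO. The fibroblast markers Acta2, Dcn, Lum and S100a4 had 0 counts in all 6 libraries, and that list summed to 47.4 to 50.4 CPM in E1-KO and 46.5 to 49.0 in E2-KO.

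Of 15763 genes with enough counts to test, 3377 (21.4%) were called between E1-KO and E2-KO. Of these 1704 were higher in E1-KO (10.8% of genes tested) and 1673 were higher in E2-KO (10.6%). A difference of at least 1 on the log2 scale, or 2-fold, was rarer, with 271 genes (1.72%), of which 171 were higher in E1-KO (1.08%) and 100 in E2-KO (0.634%). Most calls were thus of small size, and the median log2 fold change over all genes was -0.0029. The plot of fold change against mean level shows called genes in both directions among low and highly expressed genes.

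**Figure D1:**
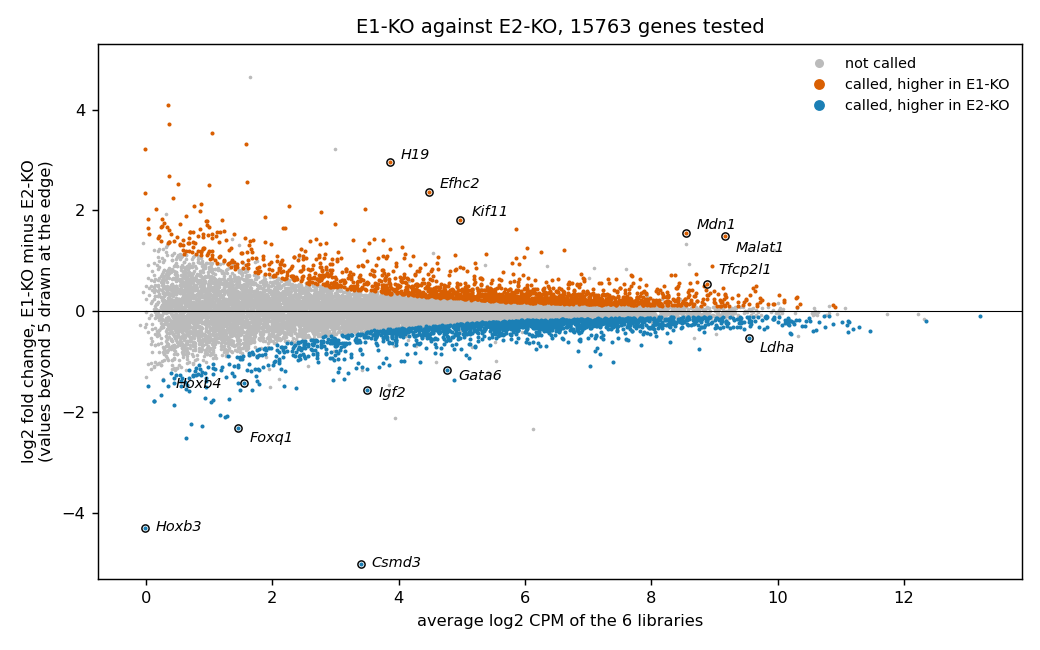
Each point is 1 of the 15763 genes tested, with its average log2 CPM over the 6 libraries on the x axis and the log2 fold change, E1-KO minus E2-KO, on the y axis. Called genes are orange where higher in E1-KO (1704) and blue where higher in E2-KO (1673), and Csmd3 is drawn at the lower edge.

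Longer transcripts were more often higher in E1-KO. In the 3836 genes with the longest transcripts (4529 bases or more) 986 were called higher in E1-KO and 194 higher in E2-KO, with a median log2 fold change of 0.10. In the 3837 with the shortest (up to 1829 bases) 190 were higher in E1-KO and 503 higher in E2-KO, with a median of -0.06. With trends in GC content and length taken out of each library 3019 genes were called, 2462 of them among the 3377 and 2460 of those in the same direction. Their part in single results was not tested beyond this fit. In a fit of all 12 libraries, whose spread includes that of WT, 100 genes were called, all of them among the 3377 and in the same direction. Of the 120 called genes chosen for description, 21 were among those 100.

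HoxB expression was low in both deletions, and more of the anterior genes remained when E2 was missing than when E1 was missing. The 10 HoxB genes on chromosome 11 summed to 10.7 ± 0.104 CPM in E1-KO and 15.3 ± 0.564 in E2-KO (SD, n = 3). The 3 E1-KO libraries lay at 10.6 to 10.8 CPM and the 3 E2-KO libraries at 14.9 to 15.9 CPM, without overlap. The difference in means was -4.58 CPM, with p = 0.1 in an exact two-sided permutation test over libraries, the smallest p that 3 against 3 can give. The sum was 148 ± 50.7 CPM in WT and 4.14 ± 1.03 in D-KO. Of 5 HoxB genes with enough counts to test, 3 were called higher in E2-KO and 1 in E1-KO, where the shares over all genes were 10.6% and 10.8%. DESeq2 gave an adjusted p to 3 of them and called 1, Hoxb4 (0.00247), while Hoxb3 received no adjusted p there. In the fit of all 12 libraries 0 of 10 HoxB genes were called, with Hoxb3 at an adjusted p of 0.0672 and Hoxb4 at 0.122.

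Hoxb4 (chr11:96318267-96321638) was read at 1.23, 2.04 and 1.01 CPM in E1-KO replicates 1 to 3 and at 4.39, 3.64 and 3.69 CPM in E2-KO. All E2-KO libraries stood above all E1-KO libraries, with a log2 fold change of -1.42 ± 0.33 (adjusted p = 0.000618). WT libraries held 17.3 to 38.5 CPM and D-KO libraries 0.0972 to 0.404, so both single deletions lay between these. Hoxb3 (chr11:96323326-96347930) was near its limit of detection in E1-KO, with 2, 0 and 0 counts against 14, 18 and 12 counts in E2-KO. The log2 ratio of the depth-scaled totals was -4.54, with an exact 95% counting interval of -7.63 to -2.61, and the gene was called (adjusted p = 1.87e-05). Such intervals cover counting error only. The antisense transcript Hoxb3os overlaps Hoxb3 and Hoxb2, stood at 0.464 to 1.32 CPM in E1-KO and 3.02 to 3.85 in E2-KO, and was called with it (-2.06 ± 0.39, adjusted p = 1.98e-05). The strand setting of the counting is unknown, so reads of this transcript and of the coding genes cannot be told apart.

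Hoxb2 (chr11:96350525-96354012) had 13, 10 and 6 counts in E1-KO and 14, 17 and 30 in E2-KO, and its call was marginal (log2 fold change -1.12 ± 0.42, adjusted p = 0.0408). The call ended without E1-KO replicate 2 (adjusted p = 0.103) or 3 (0.176), without E2-KO replicate 2 (0.0605) or 3 (0.278), in DESeq2 (0.12) and with GC content and length trends removed (0.0507). Hoxb9, a gene nearer the posterior end (chr11:96271457-96276595), went the other way, with 4.54, 5.197 and 5.43 CPM in E1-KO and 3.75, 2.60 and 3.50 in E2-KO. Its libraries did not overlap, yet its log2 fold change of 0.63 ± 0.24 (adjusted p = 0.047) did not pass in DESeq2 (0.123), in a fit of the 9 KO libraries (0.068) or without any 1 of the replicates other than E2-KO replicate 1 (0.0637 to 0.204). The remaining HoxB genes were too low to test or were not called. Hoxb1, the gene at the anterior end (chr11:96365752-96368256), had 9 counts over the E1-KO libraries against 25 in E2-KO. Hoxb5 had 12 and 29. Their depth-scaled log2 ratios were -1.56 (95% interval -2.84 to -0.41) and -1.36 (-2.46 to -0.34). These intervals come from pooled counts and leave out the spread between libraries. Without a low-count filter edgeR called neither gene (adjusted p = 0.197 for Hoxb1 and 0.211 for Hoxb5), and the Hoxb1 libraries overlapped between genotypes. Hoxb6 had 8 and 9 counts, Hoxb7 20 and 18, and Hoxb8 22 and 15, with intervals that include 0. Hoxb13 was tested and not called (-0.45 ± 0.47, adjusted p = 0.55).

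**Figure D2:**
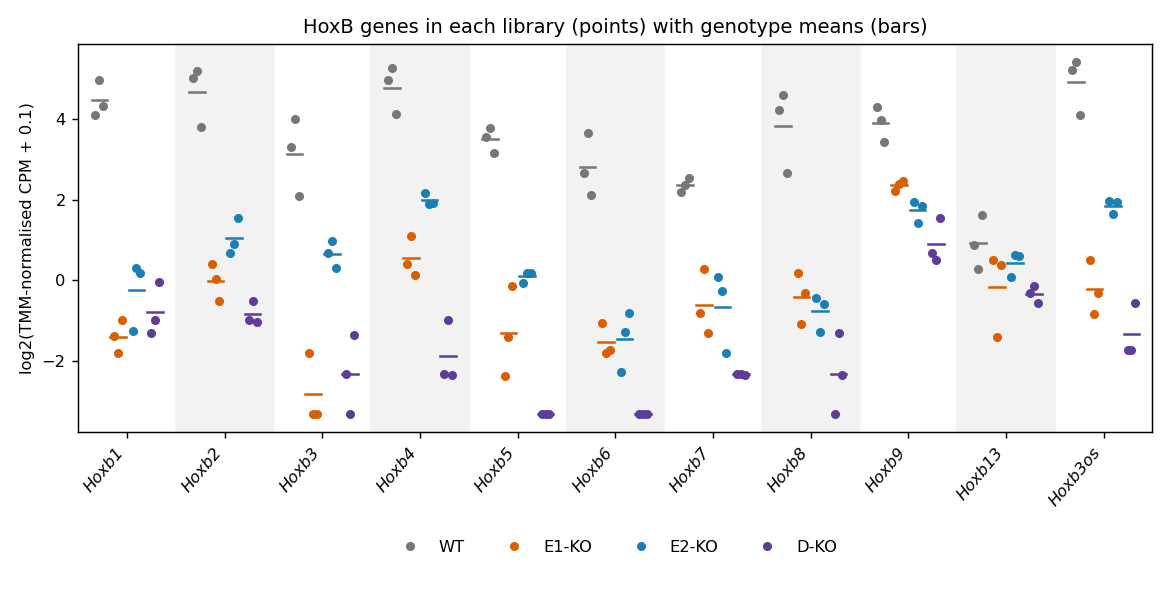
Each point is 1 library and each bar a genotype mean of log2(CPM + 0.1), for the 10 HoxB genes and Hoxb3os on the x axis. In E2-KO all 3 points of Hoxb3, Hoxb4 and Hoxb3os lie above all 3 points of E1-KO, Hoxb9 lies the other way, and the WT points stand highest for every gene except Hoxb13, where they overlap the others.

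Around the cluster calls were no more common than over all genes. Of 32 tested neighbours on chromosome 11, 3 were higher in E1-KO (9.38%) and 2 in E2-KO (6.25%). For so few genes these counts are near the shares over all genes (10.8% and 10.6%). The ubiquitin ligase adaptor gene Spop was lower in E1-KO (log2 fold change -0.32 ± 0.06) and the zinc finger gene Zfp652 was higher (0.30 ± 0.07), though with GC content and length trends removed Zfp652 was not called (adjusted p = 0.407). Phb was lower (-0.18 ± 0.04; adjusted p = 0.107 with those trends removed), and Ube2z (0.13 ± 0.05) and Scrn2 (0.43 ± 0.16) were higher. These last calls ended in DESeq2 (adjusted p = 0.089 and 0.115) and each without 4 of the 6 libraries in turn: Ube2z without E1-KO replicate 1 or 3 or E2-KO replicate 2 or 3 (0.118 to 0.18), Scrn2 without E1-KO replicate 1 or 2 or E2-KO replicate 1 or 2 (0.0995 to 0.186). The non-coding gene Gm53 beside Hoxb9 stood at 28.2 to 30.4 CPM in E1-KO and 22.4 to 23.2 in E2-KO (0.37 ± 0.10, adjusted p = 0.0035).

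Several HoxA genes, which lie on another chromosome than HoxB, chromosome 6, were also lower in E1-KO. Of 8 tested, 4 were higher in E2-KO (10.6% over all genes) and 0 in E1-KO (median log2 fold change -0.47). Hoxa10 stood at 1.99, 1.11 and 2.01 CPM in E1-KO and at 3.96, 5.31 and 4.26 in E2-KO (-1.39 ± 0.30, adjusted p = 0.000268). Hoxa5 stood at 20.6 to 22.3 CPM in E1-KO and 30.5 to 33.8 in E2-KO (-0.57 ± 0.10). Hoxa3 (-0.50 ± 0.13) and Hoxa9 (-1.17 ± 0.43) were the others called, and Hoxa9 was not called in DESeq2 (adjusted p = 0.103) or without any 1 of the replicates other than E2-KO replicate 3 (0.0731 to 0.152). The groups did not overlap for any of these 4 genes. In D-KO, Hoxa10 held 4.03 to 5.45 CPM and Hoxa5 27.2 to 35.9, levels within or near those of E2-KO, whereas Hoxa3 held 10.2 to 11.8, within its E1-KO range of 10.02 to 12.6 and below its E2-KO range of 15.0 to 16.2. Of the 3 tested HoxC and HoxD genes 0 were called in edgeR or DESeq2, and 0 had an unadjusted p below 0.05. The TALE cofactors, homeodomain partners of Hox proteins, gave 3 calls of 11, all lower in E1-KO, among them Pbx2 (-0.15 ± 0.05) and Pbx3 (-0.70 ± 0.22), and DESeq2 called 0 of them. Pbx2 was not called with GC content and length trends removed (adjusted p = 0.138), with library totals (0.0635) or without E1-KO replicate 1 or 3 or E2-KO replicate 1 or 2 (0.0934 to 0.126), and Pbx3 not without replicate 2 of E1-KO (0.0854) or of E2-KO (0.0529).

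Several genes that take up, bind and break down retinoids were lower in E1-KO. Of 13 tested, 6 were higher in E2-KO (10.6% over all genes), 0 were higher in E1-KO and 7 did not pass (median -0.46), and with GC content and length trends removed the count was again 6. Cyp26a1, the enzyme that clears retinoic acid and whose promoter is printed above, stood at 53.5, 49.4 and 56.9 CPM in E1-KO and at 88.5, 84.4 and 74.3 in E2-KO. The groups did not overlap, and the log2 fold change was -0.61 ± 0.07 (adjusted p = 5.23e-10). WT held 146 to 288 CPM and D-KO 95.7 to 99.2. Stra6, the membrane receptor that brings in retinol, stood at 7.75 to 9.27 CPM in E1-KO and 16.97 to 18.2 in E2-KO (-1.03 ± 0.14, adjusted p = 5.54e-08). Further called members were Cyp26b1, a related enzyme (-0.80 ± 0.18), Dhrs3, a retinal reductase (-0.46 ± 0.11), and Crabp2, which carries retinoic acid to its receptors (-1.26 ± 0.41). Crabp2 was not called in DESeq2 (adjusted p = 0.0545) or without E1-KO replicate 1 (0.051) or 2 (0.113) or E2-KO replicate 3 (0.0509).

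Among 12 tested regulators that retinoic acid is known to induce, 5 were lower in E1-KO and 1 was higher (median -0.34), or 4 and 1 with GC content and length trends removed. Over all genes the shares were 10.6% lower and 10.8% higher in E1-KO. Stra8, a factor of meiotic entry, stood at 188 to 200 CPM in E1-KO and 243 to 285 in E2-KO (-0.41 ± 0.05). Zfp703 (-0.70 ± 0.10), Cdx1, a regulator of Hox genes (-0.40 ± 0.06), Gbx2 (-0.54 ± 0.11) and Wnt8a (-0.67 ± 0.22) were also lower. Wnt8a was the member whose call ended there, and it was not called in DESeq2 (adjusted p = 0.0757) or without E1-KO replicate 1 (0.144) or 3 (0.0599) or E2-KO replicate 2 (0.182). Tgm2, transglutaminase 2, was the exception at 0.38 ± 0.12 (adjusted p = 0.0185), and was not called in DESeq2 (0.0574) or without E1-KO replicate 2 (0.0724) or 3 (0.0665) or E2-KO replicate 2 (0.136). Lower in E1-KO did not always mean below WT. For Cdx1, WT held 39.0 to 73.2 CPM, around E1-KO (59.8 to 63.6) and below E2-KO (79.4 to 84.5). For Stra8, WT held 121 to 323 CPM, around both genotypes. For Zfp703, WT held 28.5 to 58.2 CPM, above E1-KO (17.1 to 18.3). The receptors and corepressors gave a different picture, with 3 of 10 higher in E1-KO and 0 lower, or 2 and 0 with those trends removed. Among these were the corepressor Ncor1 (0.35 ± 0.04) and the receptor Rxra (0.23 ± 0.08). Rxra was not called in DESeq2 (0.0969) or without E1-KO replicate 2 (0.061) or 3 (0.14) or E2-KO replicate 2 (0.162) or 3 (0.102). The retinoic acid receptor genes Rara (-0.12 ± 0.07), Rarb (-0.10 ± 0.14) and Rarg (-0.10 ± 0.04) did not pass.

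Primitive endoderm transcription factors were lower in E1-KO than in E2-KO. Of 7 tested, 6 were higher in E2-KO (10.6% over all genes) and 0 in E1-KO (10.8%), with a median of -1.15 against -0.0029 over all genes. Gata6, the factor that specifies this lineage, stood at 16.1, 17.4 and 15.1 CPM in E1-KO and at 34.9, 38.1 and 36.6 in E2-KO. The groups lay far apart, with a log2 fold change of -1.15 ± 0.10 (adjusted p = 2.19e-13), and Gata6 was also called in the fit of all 12 libraries. WT held 69.1 to 72.6 CPM and D-KO 44.9 to 47.7, so E2-KO and D-KO lay between E1-KO and WT. Sox17, a later factor of the same lineage, stood at 1.02 to 1.42 CPM in E1-KO and 2.84 to 4.79 in E2-KO (-1.56 ± 0.34, adjusted p = 0.000243). Foxq1 stood at 0.302 to 1.21 and 3.75 to 4.69 CPM (-2.31 ± 0.39, adjusted p = 1.44e-06). Gata4 (-0.85 ± 0.21) and Sox7 (-0.78 ± 0.24) were lower too, Sox7 not without E1-KO replicate 1 (adjusted p = 0.0515) or 3 (0.0601), and Hnf4a did not pass (-0.38 ± 0.23, adjusted p = 0.254). The list summed to 27.6 to 34.1 CPM in E1-KO and 66.0 to 68.3 in E2-KO. In these bulk samples fewer cells of a type and less RNA per cell cannot be told apart.

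Among genes of visceral endoderm uptake and carriers, 4 of 10 were higher in E2-KO (10.6% over all genes), 0 were higher in E1-KO and 6 did not pass (median -0.50). Cubn, which encodes the endocytic receptor cubilin, stood at 0.650 to 1.01 CPM in E1-KO and 2.57 to 4.16 in E2-KO (-2.09 ± 0.39, adjusted p = 1.52e-05), and its partner Amn at 5.06 ± 0.462 and 8.62 ± 1.78 (-0.75 ± 0.19). Dab2, an endocytic adaptor, was lower too (-0.85 ± 0.28), but not in DESeq2 (adjusted p = 0.0783) or without E1-KO replicate 1 or 2 or E2-KO replicate 1 or 3 (0.0625 to 0.151). Pdgfra, a growth factor receptor on primitive endoderm, stood at 3.52 to 4.45 and 9.89 to 11.3 CPM (-1.37 ± 0.19, adjusted p = 5.14e-08). The carrier genes Afp, Apoa1, Ttr, Fgb and Spink1 were too low to test. Basement membrane genes were split, with 5 of 12 lower in E1-KO and 2 higher. Serpinh1, a collagen chaperone (-0.57 ± 0.05), and the collagen IV chains Col4a1 (-0.47 ± 0.06) and Col4a2 (-0.42 ± 0.07) were lower, as were the laminin chains Lamb1 (-0.46 ± 0.07) and Lama1 (-0.34 ± 0.08). Nid1 was higher (0.34 ± 0.04). Hspg2, which encodes perlecan, was also higher (0.32 ± 0.03) and lost its call when GC content and length trends were removed (adjusted p = 0.149).

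**Figure D3:**
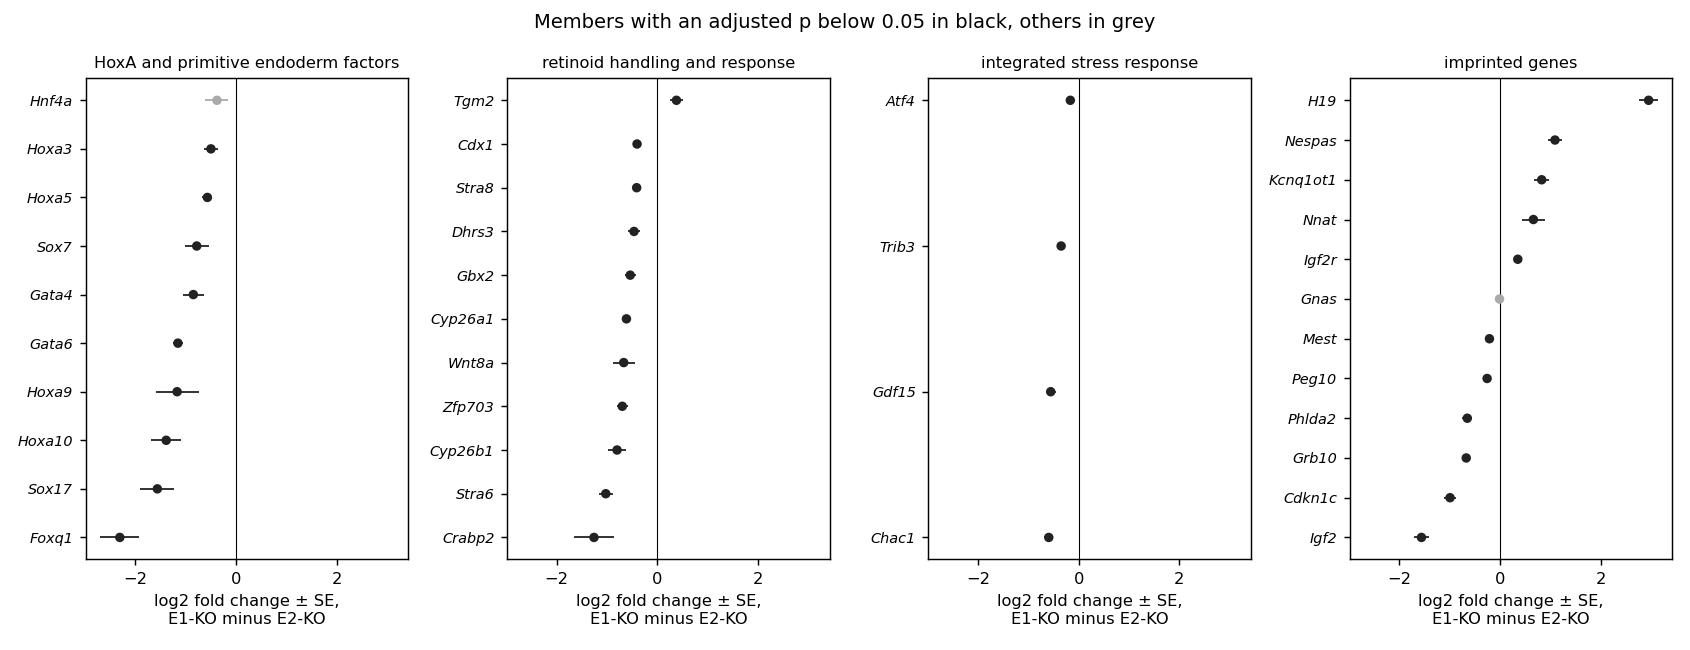
Points are log2 fold changes, E1-KO minus E2-KO, and lines are standard errors, for members named in the text of the lists above each panel, with called genes in black. The primitive endoderm factors, HoxA genes and integrated stress response genes shown all lie below 0, and imprinted genes run from H19 at 2.95 to Igf2 at -1.56. Not shown are 1 tested HoxA gene and 1 tested integrated stress response gene with a log2 fold change above 0.

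Some naive pluripotency factors, genes active in the ground state before differentiation, were higher in E1-KO by small amounts. Of 19 tested, 7 were higher in E1-KO (10.8% over all genes), 1 was higher in E2-KO and 11 did not pass (median 0.11). Tfcp2l1, a naive transcription factor, stood at 521, 554 and 536 CPM in E1-KO and at 373, 377 and 376 in E2-KO (0.53 ± 0.04, adjusted p = 4.75e-16). Esrrb stood at 790 to 819 and 623 to 664 CPM (0.33 ± 0.04, adjusted p = 6.74e-10), and Zfp42, known as Rex1, at 741 to 766 and 623 to 670 (0.24 ± 0.04). The exception was Klf2, at 133 ± 3.72 CPM in E1-KO and 167 ± 4.99 in E2-KO (-0.31 ± 0.05). Nanog (0.09 ± 0.04, adjusted p = 0.0605) and Klf4 (0.05 ± 0.05) did not pass. None of the list was called in the fit of all 12 libraries.

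More of the general pluripotency genes were lower than higher. Of 13 tested, 7 were lower in E1-KO (10.6% over all genes), 1 was higher and 5 did not pass (median -0.15). Tdgf1, the Nodal co-receptor Cripto, stood at 219 to 224 CPM in E1-KO and 283 to 308 in E2-KO (-0.40 ± 0.04), and Utf1 at 262 to 279 and 329 to 337 (-0.29 ± 0.04). Pou5f1 (-0.04 ± 0.04) and Sox2 (0.08 ± 0.05) did not pass. Formative epiblast genes, which come up as naive cells move on, were 4 of 13 lower and 2 higher in E1-KO. Pou3f1, also known as Oct6, stood at 5.87, 5.66 and 6.44 CPM in E1-KO and at 13.4, 12.3 and 13.6 in E2-KO (-1.11 ± 0.16, adjusted p = 2.71e-07), with Dusp6, Dnmt3a and Sox3 on the same side, whereas Foxd3 (0.38 ± 0.06) and Etv5 (0.21 ± 0.04) were higher. Otx2 did not pass (-0.03 ± 0.40), and Fgf5 was too low to test.

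Signals that act in the early epiblast differed gene by gene. Nodal genes gave 4 of 12 in each direction. Lefty1, a secreted Nodal inhibitor and target, stood at 5.49 to 8.75 CPM in E1-KO and 13.4 to 15.9 in E2-KO (-1.13 ± 0.16, adjusted p = 1.75e-07), and Nodal itself at 72.5 to 84.1 and 98.6 to 106 (-0.37 ± 0.06). Tdgf1 and the Nodal cofactor gene Foxh1 (-0.40 ± 0.10) were the other lower members. The inhibitory Smad gene Smad7 (0.29 ± 0.05) and the receptor gene Acvr1b (0.35 ± 0.06) were higher, as were Acvr2b (0.33 ± 0.10) and Furin (0.28 ± 0.10). Acvr2b was not called without E1-KO replicate 2 (adjusted p = 0.132). Furin was not called in DESeq2 (0.124), with GC content and length trends removed (0.118), in the fit of the 9 KO libraries (0.0542) or without any 1 of the replicates other than E2-KO replicate 2 (0.0606 to 0.261). Genes that respond to FGF and ERK were 5 of 20 lower in E1-KO and 1 higher, with the feedback inhibitors Spry2 (70.9 to 80.4 and 108 to 112 CPM, -0.53 ± 0.06) and Dusp6 (-0.35 ± 0.05), and with Myc, Phlda1 and Fgfr2, among the lower, and Etv5 the higher. BMP genes were 4 of 15 higher (Smad7, Bmpr2, Smad5 and Id3) and 0 lower, a count that was 2 with GC content and length trends removed, where Bmpr2 (adjusted p = 0.228) and Smad5 (0.156) were not called. Smad5 was also not called without E1-KO replicate 1 (0.0612) or 2 (0.0712) or E2-KO replicate 2 (0.103), and Id3 not in DESeq2 (0.0682) or without E1-KO replicate 1 (0.167) or E2-KO replicate 2 (0.082). Wnt response genes gave 2 of 10 lower, Cdx1 and Dkk1, and 1 higher, Znrf3, counts near the shares over all genes (10.6% and 10.8%). The Dkk1 libraries overlapped between genotypes, and its call ended without E1-KO replicate 2 or 3 or E2-KO replicate 1 or 2 (adjusted p = 0.0734 to 0.155). The call of Znrf3 ended in DESeq2 (0.113), with GC content and length trends removed (0.245), in the fit of the 9 KO libraries (0.0564) and without each of the 6 libraries in turn (0.0626 to 0.198).

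Markers of other fates differed in part, against shares over all genes of 10.8% higher and 10.6% lower in E1-KO. Of 8 tested early neural genes 2 were higher in E1-KO and 1 lower. Sox21, a neural progenitor factor that stem cells also express, stood at 13.3 to 17.9 CPM in E1-KO and 7.91 to 8.45 in E2-KO (0.92 ± 0.15, adjusted p = 2.64e-06). Nes was the other higher gene (0.54 ± 0.16) and Dll1 the lower (-0.70 ± 0.24). Nes was not called without E1-KO replicate 1 (adjusted p = 0.11) or 2 (0.0552) or E2-KO replicate 1 (0.0525), and Dll1 not in DESeq2 (0.0907) or without E1-KO replicate 1, 2 or 3 or E2-KO replicate 2 (0.0547 to 0.201). Pax6 and Olig2 were too low to test. Trophectoderm genes gave 2 of 14 higher, Tead4 and Tfap2c, and 0 lower. Of 6 streak and mesoderm genes only Pdgfra, counted above, was called. For the 8 tested genes of the 2-cell-like state, 0 were called in edgeR or DESeq2, and 0 had an unadjusted p below 0.05. Among 15 epithelial and mesenchymal genes 6 were lower in E1-KO and 2, Fn1 and Tjp1, higher. DESeq2 gave 4 lower and 2 higher, and the fit with GC content and length trends removed gave 5 and 1. With those trends removed Tjp1 (adjusted p = 0.104) and the lower gene Snai1 (0.21) were not called. Snai1 and Cdh2, also lower, were not called in DESeq2 (0.13 and 0.111). Their calls ended without any 1 replicate other than E2-KO replicate 2 for Snai1 (0.0581 to 0.228) and E2-KO replicate 3 for Cdh2 (0.0501 to 0.276). Vim, the intermediate filament vimentin, stood at 99.8 to 103 CPM in E1-KO and 164 to 179 in E2-KO (-0.73 ± 0.05, adjusted p = 1.21e-16), and the epithelial cadherin gene Cdh1 was lower as well (-0.19 ± 0.04), so genes of both kinds lay on the same side.

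**Figure D4:**
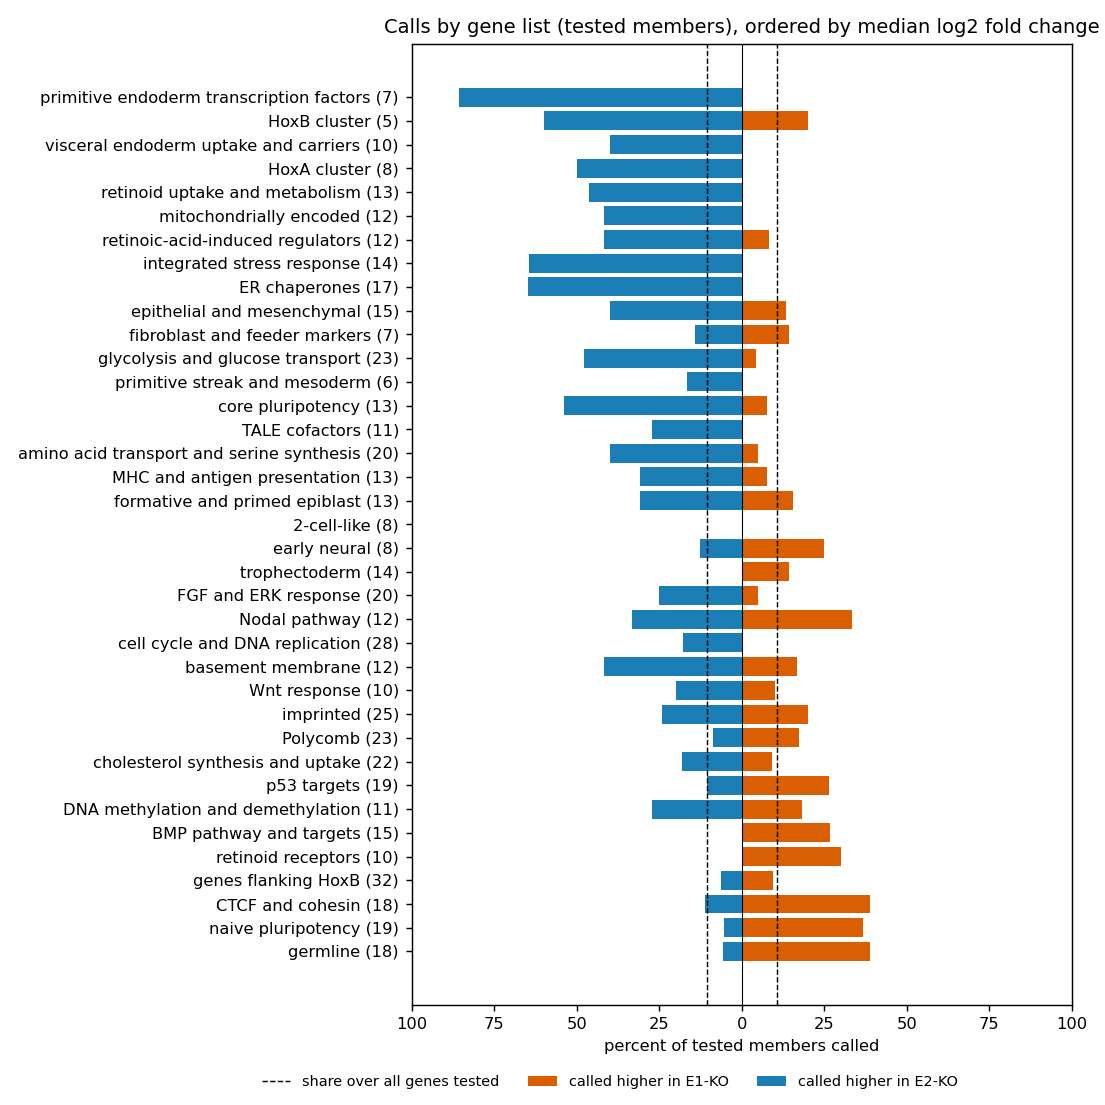
Bars give the percent of tested members (number in brackets) of each list that were called, to the right where higher in E1-KO and to the left where higher in E2-KO, and dashed lines give the shares over all genes, 10.8% and 10.6%. Lists are ordered by median log2 fold change, from primitive endoderm factors at -1.15 to germline genes at 0.25.

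Several lists of stress and metabolic genes held more calls towards E2-KO than the 10.6% over all genes. Of 14 tested genes of the integrated stress response, the programme that runs through Atf4 when amino acids are short or proteins misfold, 9 were lower in E1-KO and 0 higher (median -0.33), or 7 with GC content and length trends removed, where Atf4 itself was not called (adjusted p = 0.0761). Chac1, a glutathione-degrading enzyme and Atf4 target, stood at 25.1 to 32.0 CPM in E1-KO and 42.5 to 46.1 in E2-KO (-0.60 ± 0.09, adjusted p = 3.89e-07). Trib3, a pseudokinase target of Atf4, stood at 75.1 to 79.2 and 96.3 to 104 CPM (-0.35 ± 0.06), and the stress cytokine gene Gdf15 at 21.6 to 25.6 and 32.4 to 37.6 (-0.56 ± 0.09). Both genotypes stood above WT for these, where Trib3 held 20.99 to 39.5 CPM and Gdf15 2.13 to 7.47. Endoplasmic reticulum chaperones were lower in 11 of 17 cases and higher in 0 (median -0.21), with Hsp90b1 at -0.26 ± 0.04 and Calr at -0.22 ± 0.04. Amino acid transport and serine synthesis genes were lower in 8 of 20 cases and higher in 1, led by Shmt2 (-0.30 ± 0.04) and Slc3a2 (-0.31 ± 0.04). In the fit of all 12 libraries 0 members of these 3 lists were called.

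Glycolysis and glucose transport genes were lower in E1-KO in 11 of 23 cases and higher in 1 (median -0.16), where the shares over all genes were 10.6% and 10.8%. Ldha, lactate dehydrogenase A, stood at 602, 580 and 586 CPM in E1-KO and at 876, 864 and 831 in E2-KO (-0.52 ± 0.04, adjusted p = 1.21e-16). The single gene that was higher was Ldhb, the other main subunit of the enzyme, at 230 ± 8.86 CPM and 164 ± 6.58 (0.51 ± 0.05). The 2 subunits thus differed in opposite directions, each without overlap of libraries. Aldoa stood at 926 to 983 and 1279 to 1320 CPM (-0.42 ± 0.03), and Tpi1 at 140 ± 4.95 and 205 ± 6.01 (-0.54 ± 0.05). Mitochondrially encoded genes were lower in 5 of 12 cases and higher in 0 (median -0.35), with mt-Nd4 at -0.44 ± 0.04. The lower mitochondrial share of counts in E1-KO given above includes these same genes and is no separate observation.

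Genes of DNA methylation and demethylation were split, with 2 of 11 higher in E1-KO and 3 lower, where the shares over all genes were 10.8% and 10.6%. The demethylating dioxygenase genes Tet1 (478 to 505 CPM in E1-KO, 320 to 342 in E2-KO, 0.58 ± 0.04, adjusted p = 8.42e-17) and Tet2 (389 to 405 and 269 to 275 CPM, 0.56 ± 0.04, adjusted p = 4.33e-16) were higher in E1-KO. Their transcripts are long, 14369 and 9179 bases, and both were still called with length trends removed. In the same list Dnmt3l (-0.34 ± 0.04), a cofactor of new DNA methylation, Dnmt3a (-0.27 ± 0.05) and Prmt5 (-0.16 ± 0.05) were lower, Prmt5 not without E1-KO replicate 1 (adjusted p = 0.0546) or E2-KO replicate 3 (0.0628). More germline genes were higher in E1-KO, with 7 of 18 higher and 1, Stra8, lower (median 0.25). The receptor gene Kit stood at 111 to 121 and 81.1 to 82.9 CPM (0.54 ± 0.06, adjusted p = 9.51e-11) and Tex19.1 at 45.3 to 47.8 and 28.5 to 30.8 (0.67 ± 0.08). Loop factors gave 7 of 18 higher and 2 lower, but 4 and 3 with GC content and length trends removed, where the cohesin loader gene Nipbl was not called (adjusted p = 0.204).

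Imprinted genes, which are read from the maternal or the paternal copy alone, split in both directions, with 5 of 25 higher in E1-KO and 6 lower. Over all genes the shares were 10.8% and 10.6%. The widest differences were in the neighbours H19 and Igf2 on chromosome 7. H19, a maternally expressed non-coding RNA (chr7:142575529-142578143), stood at 23.1, 24.3 and 24.7 CPM in E1-KO and at 4.07, 3.44 and 1.99 in E2-KO. Its log2 fold change was 2.95 ± 0.18 (adjusted p = 1.78e-20), and D-KO (2.32 to 3.74 CPM) and WT (0.119 to 3.18) lay with E2-KO. Igf2, the paternally expressed growth factor gene (chr7:142650766-142666816), stood at 5.87, 5.66 and 4.83 CPM in E1-KO and at 15.5, 17.6 and 15.9 in E2-KO, with a log2 fold change of -1.56 ± 0.16 (adjusted p = 1.27e-11). D-KO again lay with E2-KO for Igf2, at 14.5 to 17.5 CPM, and WT at 7.83 to 18.1. So E1-KO was the genotype that stood apart at both genes, and both were also called in the fit of all 12 libraries.

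Other imprinted genes showed smaller differences. Cdkn1c, a maternally expressed cell cycle inhibitor on chromosome 7, stood at 12.9 to 13.2 CPM in E1-KO and 24.3 to 28.6 in E2-KO (-0.99 ± 0.12, adjusted p = 1.13e-09). In the same imprinted region Kcnq1ot1, the paternal antisense RNA, was higher (16.3 ± 2.23 and 9.27 ± 1.45 CPM, 0.83 ± 0.14) and Phlda2 was lower (-0.65 ± 0.10). With GC content and length trends removed Kcnq1ot1 was not called (adjusted p = 0.81). Nespas, antisense to the Gnas region, was higher (1.09 ± 0.14), as were Igf2r (0.35 ± 0.05) and Nnat (0.66 ± 0.23). Nnat was not called in DESeq2 (0.0953) or without E1-KO replicate 1 (0.203) or E2-KO replicate 1 (0.151) or 3 (0.0551). Grb10 (-0.67 ± 0.08), Peg10 (-0.26 ± 0.04) and Mest (-0.21 ± 0.06) were lower, Mest not without E1-KO replicate 1 (adjusted p = 0.0764). Kcnq1ot1 and Nespas overlap other genes whose reads may be counted with theirs, and counts do not show which parental copy was read.

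The single largest difference was at Csmd3, a gene for a large membrane protein on chromosome 15 (chr15:47580637-48792063). It had 0 counts in all 3 E1-KO libraries and 177, 216 and 210 counts in E2-KO, or 18.9, 22.5 and 19.9 CPM. Against a floor of 3 counts over the E1-KO group (0.0959 CPM) it was at least 213-fold higher in E2-KO, and the exact two-sided 95% counting interval, a wider limit, left its log2 ratio at -7.43 or lower. WT also had 0 counts and D-KO 1099 in all, so the gene was read in the 2 genotypes that lack E2. It was the only gene with 0 counts in all libraries of one genotype and at least 10 in each of the other, in either direction.

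The largest differences towards E1-KO beside H19 were of genes with varied roles. Mdn1, which encodes the ribosome assembly factor midasin, stood at 533, 554 and 520 CPM in E1-KO and at 185, 185 and 182 in E2-KO (1.56 ± 0.04, adjusted p = 5.18e-35), with 239 to 260 in D-KO and 449 to 1007 in WT. Here E2-KO and D-KO lay below E1-KO and WT. Malat1, a nuclear non-coding RNA, stood at 1023, 696 and 723 CPM in E1-KO and 274 to 321 in E2-KO (1.502 ± 0.197, adjusted p = 0.0104), and its call ended without E2-KO replicate 2 (adjusted p = 0.0561). Efhc2, an X-linked gene for a ciliary protein, stood at 33.4 to 38.2 CPM in E1-KO and 6.10 to 7.48 in E2-KO (2.37 ± 0.13), with 0.356 to 1.33 in WT. The mitotic kinesin gene Kif11 (1.81 ± 0.31, adjusted p = 0.0191) varied within genotypes, with 31.8 to 55.1 CPM in E1-KO, 28.5 to 94.3 across D-KO libraries and 4.62 to 47.3 across WT. Without E2-KO replicate 1, 2 or 3 it was not called (adjusted p = 0.076, 0.086 and 0.0591), nor in the fit of the 9 KO libraries (0.0619).

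The other genes on that side were of low level. The stem cell non-coding RNAs Platr16 (1.88 ± 0.33) and Platr15 (1.65 ± 0.26), the synaptotagmin-like gene Sytl3 (1.65 ± 0.26), the ion channel gene Trpa1 (1.59 ± 0.40), Hist1h2ae (1.57 ± 0.38), AU041133 (1.45 ± 0.35) and Rnaset2b (1.43 ± 0.22) were higher in E1-KO. AU041133 was not called without E1-KO replicate 3 (adjusted p = 0.053). Hist1h2ae and Rnaset2b have near-identical copies, so their counts are uncertain. On the E2-KO side, beside Csmd3, Foxq1, Cubn, Hoxb3os, Sox17 and Igf2, stood Sp8, a zinc finger factor (0.662 to 0.906 and 2.68 to 3.598 CPM, -2.05 ± 0.39), Aoc3 (-1.79 ± 0.41), Atp1a4 (-1.75 ± 0.40), Cyyr1 (-1.73 ± 0.36), Nostrin (-1.55 ± 0.31) and the linker histone gene Hist1h1c (-1.51 ± 0.25).

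**Figure D5:**
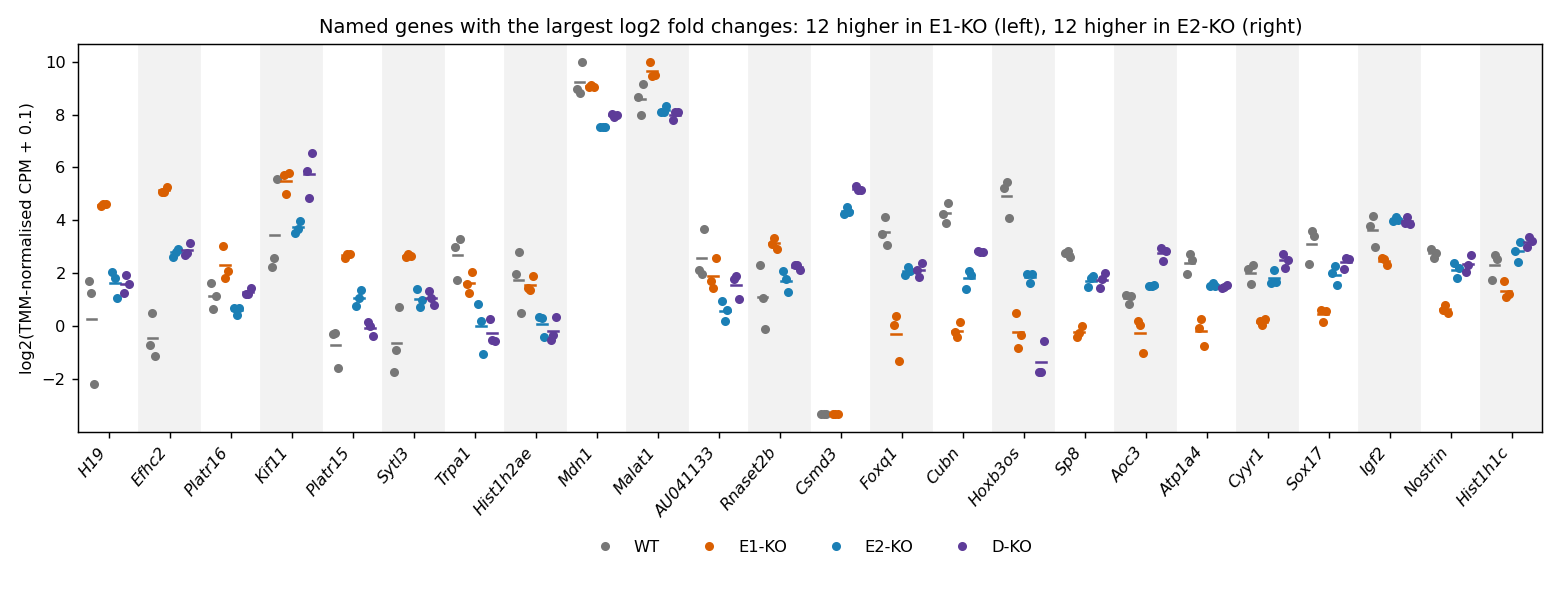
Points are single libraries and bars genotype means of log2(CPM + 0.1) for the 12 named genes with the largest log2 fold change towards E1-KO (left) and towards E2-KO (right). In D-KO, H19, Efhc2, Mdn1, Malat1, Csmd3, Foxq1 and Igf2 lie on the E2-KO side of E1-KO. Kif11, AU041133 and Hoxb3os in D-KO overlap E1-KO, and the D-KO mean of Hoxb3os lies below those of both genotypes.

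The D-KO libraries, which took no part in choosing these genes, lay nearer to E2-KO more often than to E1-KO. Of the 1704 genes higher in E1-KO, all 3 D-KO libraries lay nearer to the E2-KO mean for 968 (56.8%) and nearer to the E1-KO mean for 400 (23.5%). Of the 1673 genes higher in E2-KO the counts were 1148 (68.6%) and 265 (15.8%). Nearer to E2-KO often meant beyond it: the D-KO mean lay below both genotypes for 767 of the 1704 genes and above both for 976 of the 1673. For WT the counts of nearer libraries were 447 and 502 among genes higher in E1-KO and 467 and 466 among genes higher in E2-KO. These are counts over genes that share libraries and are given with no test. Grb10 was an exception: E1-KO stood at 32.3 ± 0.925 CPM, E2-KO at 52.1 ± 3.33 and D-KO at 24.9 (mean of 3). By chromosome, 19.08% to 25.8% of genes tested on each autosome and the X were called, with medians between -0.03 and 0.02, so the calls were not gathered on chromosome 11 (20.4%).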

How the data were processed

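The authors deposited raw read counts per gene symbol (52535 symbols per library), aligned to mm10 with HISAT2 2.1.0 and counted with HTSeq 0.9.1, per the submitters' processing notes. No annotation or strand setting is given in the sources used here. Lines of unassigned reads (63.5% to 64.7% of each file's total in the 6 libraries) stayed out of library sizes and tests. Groups follow the genotype in the labels. Counts of the 6 libraries were tested with edgeR 4.0.16 (R 4.3.3): filterByExpr on genotype, TMM, a robust quasi-likelihood fit with no covariate (common dispersion 0.00357) and Benjamini-Hochberg adjustment over 15763 genes. CPM in the text are scaled over 12 libraries, and fold changes include edgeR's small prior count. On simulated counts of 15763 genes the test recovered 55.2%, 92.5% and 98.5% of changes of 0.5, 1 and 2 on the log2 scale with 14 unchanged genes called. The changes were put into 67, 67 and 66 genes, far fewer than were called in the data. All of these had an average log2 CPM of 1 or more, so recovery of changes in lower genes was not tested.

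The 40 gene lists and the comparison itself were chosen with earlier results of these data known. Lists are described by counts and medians with no test. Named genes are the HoxB genes, the 12 largest called differences in each direction among genes whose average log2 CPM is 1 or more, whose libraries are separated and whose symbol is no predicted locus, up to 3 called members of each list by adjusted p, and genes at 0 counts in one genotype. Members named beyond these were chosen after their values were seen. A few genes are not reported here by name; counts include them. Positions and types come from GENCODE M21 and RefSeq GRCm38.p6 by symbol (48108 and 35103 of 52535 matched). At these depths 3 counts in a library are 0.278 to 0.321 CPM. Alternatives were DESeq2 1.42.0 and its size factors, library totals, no filter or a filter of at least 10 counts, the 9 KO or all 12 libraries, a replicate block, removal of GC and length trends, and leaving out each library.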

Additional observations from a re-analysis of the deposited data

How the results depend on the processing

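The 3377 calls became 3385 with DESeq2's size factors, 3370 with library totals (55.9% instead of 50.5% higher in E1-KO), 3177 without a filter, 3465 with the stricter filter, 3467 with the 9 KO libraries, 3019 with GC content and length trends removed and 2331 in DESeq2. DESeq2 called 174 genes with a log2 change of at least 1, against 271. In the fit of all 12 libraries 100 genes were called, 54 higher in E1-KO and 46 higher in E2-KO, 54 of them by at least 1; that fit holds the more variable WT libraries. Leaving out 1 library gave 2522 to 3291 calls, 1267 to 1684 higher in E1-KO and 1231 to 1607 higher in E2-KO, and 240 to 298 by at least 1. The difference in summed HoxB level was -4.48 CPM with DESeq2's size factors, -4.43 with library totals and -4.77 to -4.26 without 1 library. Of the 120 called named genes, each kept its sign under every alternative that tested it (118 in DESeq2, 119 with the stricter filter, 120 in the others); 104 to 114 were called without 1 library, 105 with GC content and length trends removed and 108 in DESeq2.

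Replicate numbers did not pair the samples: same-numbered libraries deviated with correlations of 0.019, -0.022 and 0.011. With the replicate block 3138 genes were called, 1569 in each direction, 261 by at least 1, and among the called genes chosen for description 5 were no longer called, among them Hoxb2 (adjusted p = 0.0667), Hoxb9 (0.0577), Malat1 (0.0741) and Znrf3, a Wnt target (0.0565). Beyond these, Ube2z was not called with the block (0.056). Without a filter Hoxb2, Hoxb9, Hoxa9, Pbx2, Scrn2, Ube2z and Znrf3 were among those no longer called (adjusted p = 0.0505 to 0.0778). Genes under about 0.3 CPM in both genotypes cannot be compared at this depth.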

Other observations

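Among the lists not described above, p53 targets gave 5 of 19 higher in E1-KO and 2 lower, where the shares over all genes were 10.8% and 10.6%, with Trp53inp1, a p53-induced autophagy gene, at 304 to 317 CPM in E1-KO and 233 to 236 in E2-KO (edgeR log2 fold change 0.41 ± 0.04, adjusted p = 3.24e-11). The counts were 3 and 2 in DESeq2, and 4 and 2 with GC content and length trends removed. Of the higher genes, Btg2 was not called in DESeq2 (adjusted p = 0.119) or without each of the 6 libraries in turn (0.0595 to 0.24). Zmat3 was not called in DESeq2 (0.0701) or with those trends removed (0.906). Antigen presentation genes gave 4 of 13 lower and 1 higher. The counts were 3 and 1 both in DESeq2 and with those trends removed, where the lower gene H2-D1 was not called (adjusted p = 0.138 and 0.21). Tapbp (-0.51 ± 0.08) and H2-K1 (-0.38 ± 0.08) were lower in E1-KO, whereas the class II gene H2-Eb1 was higher, at 25.9 to 29.9 CPM in E1-KO, 16.3 to 18.1 in E2-KO, 13.3 to 16.5 in D-KO and 0.119 to 1.54 in WT (0.69 ± 0.11). Cell cycle genes gave 5 of 28 lower and 0 higher, or 6 and 3 with GC content and length trends removed, with Ccne1 at -0.32 ± 0.05 and Rrm2 at -0.28 ± 0.04. Polycomb genes gave 4 of 23 higher and 2 lower, and 2 and 3 with those trends removed. Cholesterol genes gave 4 of 22 lower and 2 higher, and 3 and 0 with those trends removed, with Msmo1 at -0.32 ± 0.08.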
